A study of Capra hircus with 2 samples.

Results

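Cycling keratinocytes that carry basal keratins but no hair keratin were found in the skin of both Liaoning cashmere goats studied. They made up 32 of 3443 kept cells (0.929%, 95% interval 0.637 to 1.31) in the coarse type (CT-LCG) and 348 of 9608 (3.62%, 3.26 to 4.02) in the fine type (FT-LCG), which is 380 of 13051 cells in all. A cell was taken as a member when the cycle genes TOP2A, CENPF, UBE2C and BIRC5 together had at least 3 unique molecular identifiers (UMIs) from at least 2 of the 4 genes. It also had to hold KRT35, a hair keratin, below 20 UMIs per 10000 of the cell's UMIs, the basal keratins KRT14 and KRT5 together at 50 per 10000 or more, and COL1A1, COL1A2 and COL3A1 together below 20 per 10000. These 10 genes chose the cells, so their values are given as a description only.

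Each library came from the scapular skin of 1 healthy goat during hair growth (anagen), with no treatment. Tissue was dissociated, dead cells were removed with magnetic beads, and RNA was captured with the 10x Genomics 3' kit (V3), in which each UMI marks 1 captured molecule. No age is stated for either goat in the labels or methods, and goat, fibre type and library cannot be told apart with 1 library per type. For that reason no test was run, and every interval is a 95% exact interval that covers counting error only. Levels are UMIs summed over the cells of a group per 10000 summed UMIs.

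Skin epidermis and the outer root sheath are renewed by keratinocytes that divide in the basal layer, where KRT14 and KRT5 are made, and then leave it, stop dividing and switch to KRT1 and KRT10. Hair matrix cells at the base of the follicle also divide and go on to make hair keratins such as KRT35. A dividing cell first copies its DNA in S phase with licensing factors, replication forks and nucleotide enzymes, and then builds the spindle and kinetochores of G2 and mitosis, where TOP2A, CENPF, UBE2C and BIRC5 are abundant.

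The members were deep cells. The CT-LCG members held from 999 to 130262 UMIs with a median of 7908, and the FT-LCG members from 847 to 190503 with a median of 14399. Keratinocytes of the same keratin limits with 0 UMIs of the 4 cycle genes, taken within the members' range of depth, are called non-cycling cells here. They numbered 1179 in CT-LCG, with a median of 1459 UMIs, and 5634 in FT-LCG, with a median of 4875.5. The share of members varied with depth. Among FT-LCG cells that passed the keratin and collagen limits, 1.29% were members at 1000 to 2000 UMIs, 3.21% at 2000 to 5000, 2.69% at 5000 to 10000, 10.1% at 10000 to 20000 and 22.8% at 20000 or more. In CT-LCG the same shares were 0.266%, 6.85%, 3.51%, 3.29% and 9.59%, the highest in the deepest cells but with no steady order between. At 2000 to 5000 and at 5000 to 10000 UMIs the CT-LCG share was above that of FT-LCG, and in the other 3 ranges it was below. Kept cells of at least 2000 UMIs numbered 1839 and 6512, of which 29 and 320 were members, and shallower cells were left out of the next values. With these cells thinned to 2000 UMIs each before the rule was applied, 12 of the CT-LCG cells (0.653%) and 147 of the FT-LCG cells (2.26%) were members. The part of depth and of other differences between the 2 libraries in these shares was not tested.

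**Figure D1:**
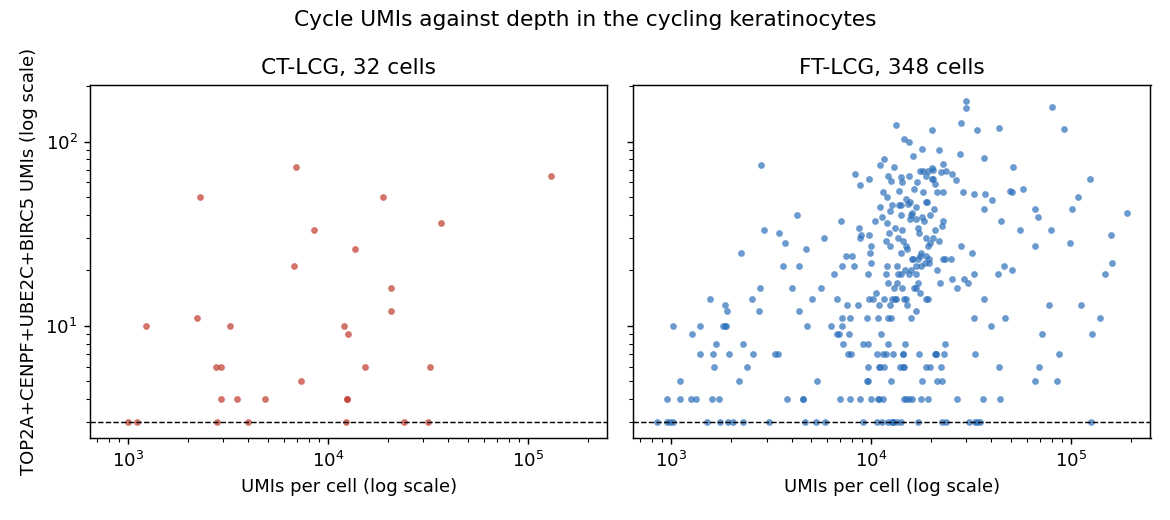
Summed UMIs of TOP2A, CENPF, UBE2C and BIRC5 (vertical axis, log scale) against total UMIs (horizontal axis, log scale) for each of the 32 CT-LCG and 348 FT-LCG members, 1 point per cell, with the rule's minimum of 3 UMIs as a dashed line. Most FT-LCG cells lie above the line by a wide margin, with 232 cells at 10 UMIs or more, while 7 CT-LCG and 30 FT-LCG cells sit on it.

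The 4 cycle genes together reached a median of 6 UMIs (3 to 73) in CT-LCG members and 17 (3 to 166) in FT-LCG members. Exactly 3 UMIs were found in 7 and 30 members, and 26 and 129 cells that otherwise met the keratin limits had 2 UMIs and stayed outside. KRT35 was at 0 UMIs in 28 of 32 and 264 of 348 members. No CT-LCG member and 3 FT-LCG members lay between 10 and 20 per 10000 of KRT35, from 10.8 to 19.6, and no cell lay between 20 and 40. For KRT14 and KRT5 together, 3 CT-LCG members (55.4 to 68.6) and 4 FT-LCG members (51.8 to 72.9) lay just inside the limit, and 7 and 18 cells lay between 25 and 50, outside it. For the collagens, no member lay at 10 or more per 10000, and 1 FT-LCG cell at 20.9 was left out.

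TOP2A, the topoisomerase that untangles sister chromatids, had a level of 2.36 per 10000 in CT-LCG members and 2.78 in FT-LCG members. UBE2C, the ubiquitin-conjugating enzyme that serves the anaphase-promoting complex, had 2.17 and 4.20. KRT14 had 176 and 242, against 161 and 225 in the non-cycling cells. The deepest CT-LCG member, described below, had KRT14 at 29.9 per 10000 and lowers the level of that library. Endothelial cells, chosen by at least 3 UMIs of PECAM1, VWF, PLVAP and CDH5, served as a background for free RNA. Their summed KRT14 level was 7.06 (45 cells) and 30.1 per 10000 (145 cells), and their summed TOP2A level was 0 and 0.0793, at median depths of 3094 and 3495 UMIs. All 4 genes that mark these cells, TOP2A, UBE2C, KRT14 and STMN1, were thus detected in the members of both libraries, and STMN1 alone was outside the rule. STMN1, a protein that destabilises microtubules, had 7.06 per 10000 (6.33 to 7.87) in CT-LCG members and 7.97 (7.77 to 8.17) in FT-LCG members, against 0.333 and 0.500 in the non-cycling cells and 0.642 and 0.882 in the endothelial cells. At 2000 UMIs per cell, 51.7% and 78.1% of members had an STMN1 UMI (68.8% and 93.7% without thinning), against 5.58% and 8.51% of non-cycling cells.

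No barcode sequence was shared between the members of the libraries, although 11 barcodes occurred among the kept cells of both. One CT-LCG member stood apart by its depth of 130262 UMIs, 27.7% of the UMIs of all 32 members, and the next had 36809. Its weight is given beside the values that rest on it most. The deepest FT-LCG member had 2.55% of that library's member UMIs.

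Against the non-cycling cells, the members were higher in genes of chromosome segregation and of DNA replication, in both goats. Of 8179 genes with at least 50 UMIs in members and non-cycling cells of each library, 170 (2.08%) were at least 2-fold higher in both libraries and 88 (1.08%) at least 2-fold lower. The contrast is the one the cycle genes define, so these counts are a description. Over all genes the log2 ratio had a median of 0.06 in CT-LCG and of -0.00 in FT-LCG. The limit of 50 UMIs in the small CT-LCG library kept many cycle genes out, and a gene low in non-cycling cells could only pass where members carried it. In FT-LCG alone 12375 genes passed, of which 4.54% were at least 2-fold higher and 4.62% lower.

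Many of the genes that stood highest act in G2 and mitosis. Of the G2/M list without the 4 rule genes, 17 of 23 genes compared were at least 2-fold higher in both libraries and none was lower, and in FT-LCG alone 47 of 49 were higher. MKI67, which coats mitotic chromosomes and is the usual mark of dividing cells, had 65 UMIs and a level of 1.38 per 10000 (1.07 to 1.76) in CT-LCG members and 1.22 (1.14 to 1.30) in FT-LCG members. In the non-cycling cells its level was 0.0256 and 0.0197, a log2 ratio of 5.75 (4.95 to 6.64) and 5.95 (5.61 to 6.31). MKI67 UMIs were found in 18 of 32 (56.3%) and 256 of 348 members (73.6%), against 1.19% and 1.31% of non-cycling cells. At 2000 UMIs per cell the shares were 24.1% and 33.1% of members, against 0 of 466 non-cycling cells for CT-LCG and 0.424% for FT-LCG. At that thinned depth the 0 of 466 allows a share of up to 0.644% of cells with an MKI67 UMI (3 counts), and the upper bound of its exact interval was 0.788%. NUSAP1, which bundles spindle microtubules, had 1.62 and 2.33 per 10000 in members against 0.0561 and 0.0626. CCNB1, the cyclin that drives entry into mitosis, had a log2 ratio of 3.53 (2.83 to 4.24) in CT-LCG and 4.93 (4.67 to 5.20) in FT-LCG. AURKA, the centrosome kinase that matures the spindle poles, had 2.61 (1.91 to 3.28) and 4.52 (4.09 to 4.97), and its partner TPX2 had 3.52 and 4.03. TUBB4B, a tubulin of most cells, had 0.27 and 0.75 and was not past the fold.

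The kinetochore and checkpoint list had 8 of 9 genes at least 2-fold higher and none lower. SPC24, a subunit of the complex that ties kinetochores to microtubules, had a level of 1.51 per 10000 in CT-LCG members and 1.30 in FT-LCG members, against 0.0272 and 0.0300 in non-cycling cells. Its log2 ratio was 5.79 (5.02 to 6.65) and 5.44 (5.16 to 5.73). NUF2 of the same complex had 4.57 and 4.63. CENPE, the kinetochore motor, had 4.13 and 5.16, and CENPW, part of the centromere's constitutive network, had 4.85 and 4.32. BUB3 was the exception, at 0.03 for CT-LCG and 1.19 for FT-LCG.

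Among the chromosomal passenger and spindle genes, 8 of 9 were at least 2-fold higher. PRC1, which cross-links the microtubules of the central spindle, had log2 ratios of 4.62 and 5.25. KIF23, a motor of cytokinesis, had 4.45 and 4.93, and RACGAP1, its partner, had 4.25 and 3.76. CKAP2, a spindle protein, had 3.79 and 4.37. In the condensin and cohesin list 5 of 9 genes were higher, led by the condensin subunits NCAPG (5.26 and 4.61) and SMC2 (4.06 and 3.78). The cohesin subunits SMC3 (1.28 and 0.70) and SMC1A (1.31 and 0.97) were past the fold in CT-LCG alone. In the list of the anaphase-promoting complex 2 of 6 genes were higher. PTTG1, the securin that holds sister chromatids until anaphase, had 3.83 and 4.42, and FZR1, an activator of the complex, had 1.15 and 1.16, while its subunit CDC26 had -0.17 and -0.00. The other genes among the 20 that stood highest were KIAA0101, KNSTRN, ARHGAP11A, DIAPH3, RRM2 and 3 genes with no name (LOC106501755, LOC108633413 and LOC108633412). KIAA0101, a factor that binds PCNA, had 1.81 and 2.03 per 10000 in members against 0.0320 and 0.0594, a log2 ratio of 5.82 and 5.09.

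Of the S phase list 20 of 31 genes were at least 2-fold higher in members and none was lower. Their median log2 ratio was 1.66 and 1.21, and that of the G2/M list was 2.47 and 2.67, though single genes of the lists overlapped. PCNA, the sliding clamp of DNA polymerases, had 4.02 per 10000 (3.47 to 4.64) and 2.92 (2.80 to 3.05) in members, against 1.27 and 0.734 in non-cycling cells, a log2 ratio of 1.66 and 1.99. CLSPN, which signals stalled forks, had 3.49 and 3.70, and UHRF1, which keeps DNA methylation after replication, had 4.02 and 3.42. Without the deepest CT-LCG member the level of UHRF1 in that library went from 0.596 to 0.353 per 10000, against 0.0368 in non-cycling cells. In the list of the MCM helicase and licensing, 8 of 10 genes were higher. MCM2 had 2.76 (2.00 to 3.48) and 1.37 (1.13 to 1.60), MCM5 had 1.53 and 1.21, and the loading factor CDT1 had 2.77 and 1.89. GMNN, which holds CDT1 back, had 1.94 and 0.95.

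Of the genes for nucleotide synthesis 5 of 7 were higher. RRM2, the S phase subunit of ribonucleotide reductase, had a log2 ratio of 4.05 (3.39 to 4.71) and 4.42 (4.17 to 4.69). DUT, which keeps uracil out of DNA, had 7.58 and 8.43 per 10000 in members against 0.709 and 1.38, a log2 ratio of 3.42 and 2.61. TYMS, the thymidylate synthase, had 2.48 and 1.79. IMPDH2 of purine synthesis had -0.07 and 0.44. Among chromatin and nuclear proteins 5 of 13 genes were higher, namely HMGB1, HMGB2, HMGB3, HMGN2 and LMNB1. HMGB2, a chromatin protein that bends DNA, had 8.60 and 7.22 per 10000 in members against 2.15 and 1.14. PTMA, an abundant nuclear protein, had 82.4 and 81.9 against 49.0 and 53.8, a log2 ratio of 0.75 and 0.61.

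Among cyclins and CDKs 3 of 9 genes were at least 2-fold higher in both libraries, namely CCNB1, CCNE2 and CDK2. In FT-LCG alone 6 of 12 were higher, since the limit of 50 UMIs in each library had left out CCNA2, CCNB2 and CDK1. CDK1, the kinase of mitosis, had 0.763 per 10000 in FT-LCG members against 0.0163, a log2 ratio of 5.55 (5.17 to 5.95). CCNA2 and CCNB2, cyclins that bind it, had 5.49 and 6.12 there. CDK2 had 19 UMIs in CT-LCG members, a log2 ratio of 1.16 (0.38 to 1.87), which was -0.30 without the deepest member. Without that cell CCNE2 went from 0.447 to 0.236 per 10000 and CDKN2C, an inhibitor of CDK4 and CDK6, from 0.426 to 0.265, against 0.0817 and 0.0865 in non-cycling cells. CCND1, the cyclin that responds to growth signals, had 3.83 and 4.07 per 10000 in members against 4.59 and 5.36. Its partner CDK4 had log2 ratios of 1.37 and 0.82. Of the 6 CDK inhibitors compared, CDKN2C (2.30 and 2.17) and CDKN2D (1.27 and 1.38), of the same kind, were higher. CDKN1A, the inhibitor p21, had 4.81 and 4.90 per 10000 against 9.44 and 6.96, a log2 ratio of -0.97 and -0.51. None of 6 cycle transcription factors was past the fold in both libraries, while 6 of 11 were higher in FT-LCG alone. MYBL2, an activator of late cycle genes, had 3.03 (2.71 to 3.35) in FT-LCG, and E2F8, a repressor of E2F targets, had 4.96 (4.30 to 5.68). MYC had -0.71 and -0.39, and E2F7, also a repressor, had 0.50 and 1.65.

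None of 11 immediate early genes, 17 growth factor and receptor genes, 13 ribosome biogenesis genes and 7 p53 targets was past the fold in both libraries. FOS had -0.11 and -0.04, EGFR had -0.90 and 0.02, and NOTCH1 had 0.28 and -0.03. The translation factor EIF4A1 had 11.6 and 8.38 per 10000 in members against 12.1 and 8.58.

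**Figure D2:**
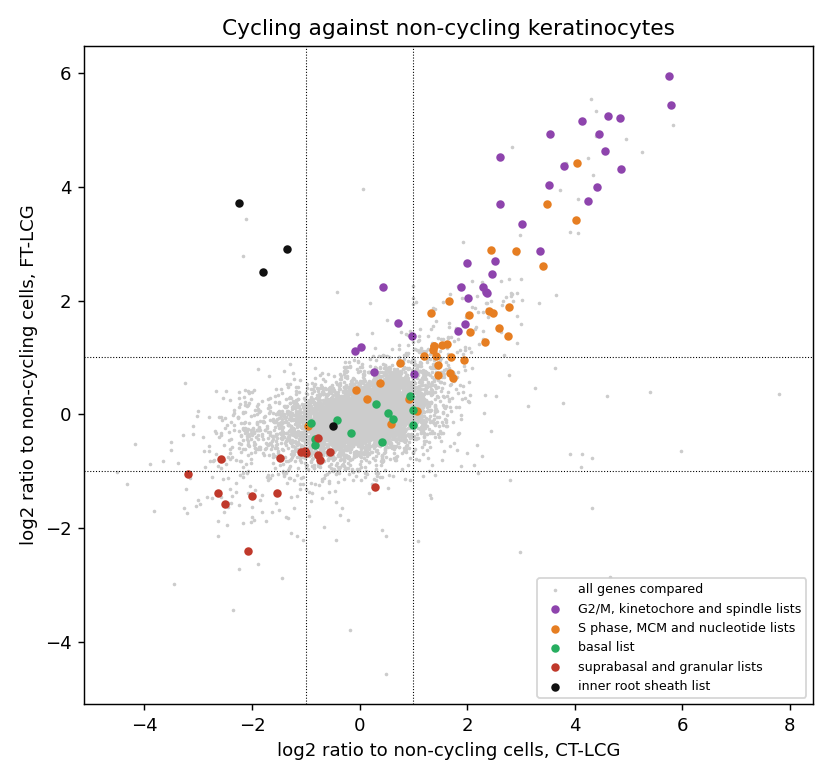
Log2 ratio of levels in members to non-cycling cells in CT-LCG (horizontal axis) and FT-LCG (vertical axis) for 8179 genes (grey), with genes of the lists in colour and dotted lines at 2-fold. Mitotic genes fill the upper right, up to MKI67 at 5.75 and 5.95, many replication genes lie nearer the centre but some, such as RRM2 at 4.05 and 4.42, lie among the mitotic genes, and 3 inner root sheath genes lie at the upper left.

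KRT1 and KRT10, the keratins of cells that have left the basal layer, were lower in members than in non-cycling cells. None of 12 basal genes outside the rule was past the fold in both libraries. COL17A1, a hemidesmosome collagen, had 4.06 and 5.32 per 10000 in members against 4.56 and 6.72. ITGA6, the integrin of hemidesmosomes, had log2 ratios of 0.94 and 0.32, and TP63, the transcription factor of stratified epithelia, had -0.90 and -0.16. KRT1, KRT10 and KRTDAP were 3 of 10 suprabasal genes at least 2-fold lower, and none was higher. The other 7 did not reach the fold in both libraries, such as SFN (-0.77 and -0.41) and SBSN (-0.56 and -0.66). KRT10 had 27.4 per 10000 (26.0 to 29.0) in CT-LCG members and 32.3 (31.9 to 32.7) in FT-LCG members, against 110 and 87.0 in non-cycling cells. KRT1, its partner in suprabasal filaments, had 15.8 and 17.7 against 97.2 and 45.9. KRTDAP, a protein secreted by differentiating keratinocytes, had 10.7 and 9.05 against 30.9 and 23.7. The list as a whole had 129 (158 without the deepest CT-LCG member) and 143 per 10000 in members against 369 and 284.

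The lower levels of these 3 genes were also seen against deep non-cycling cells alone. With non-cycling cells of at least 5000 UMIs (343 and 2782 cells), KRT1, KRT10 and KRTDAP were again the 3 of 10 suprabasal genes past the fold, with log2 ratios for KRT10 of -1.89 and -1.40. Of the 88 genes lower in members, 60 still had enough UMIs to be compared with such cells, and 27 of these 60 were at least 2-fold lower. At 2000 UMIs per cell, 6.90% of CT-LCG members (2 of 29) and 3.75% of FT-LCG members (12 of 320) had more KRT1 and KRT10 than KRT14 and KRT5 UMIs. Among the deep non-cycling cells the shares were 31.2% (26.3 to 36.4) and 19.0% (17.5 to 20.5). Thinning left out 3 and 28 members, and without it the shares of members were 6.25% and 3.16%.

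Of 6 granular layer genes 3 were lower, namely LOR, KLK5 and KLK7, though on 3, 2 and 5 UMIs in CT-LCG members. Against deep non-cycling cells KLK7, at -2.88 and -0.80, was no longer past the fold in both. LOR, loricrin of the cornified envelope, had 0.381 per 10000 (0.338 to 0.428) in FT-LCG members against 2.01. CXCL14, a chemokine made by epithelia, was the 1 gene of 9 in the outer root sheath and bulge list that was lower, with 2.61 against 6.45 in FT-LCG and 0.191 against 1.02 in CT-LCG (0.118 without the deepest member). SOX9, a factor of the outer root sheath, had 1.89 and 3.59 against 0.850 and 2.43, and KRT6A, a keratin of the same sheath, had 1.68 and 2.83 against 2.67 and 6.14. In CT-LCG 67.4% of the SOX9 UMIs came from the deepest member, and without that cell SOX9 had 0.854 in members, next to the 0.850 of non-cycling cells. At 2000 UMIs a SOX9 UMI was found in 31.0% (15.3 to 50.8) and 29.7% (24.7 to 35.02) of members, against 12.9% and 28.2% of non-cycling cells. Without thinning a SOX9 UMI was found in 14 of 32 CT-LCG members (43.8%) and 206 of 348 FT-LCG members (59.2%), against 17.3% and 45.1%. The remaining genes that stood lowest rested on 0 to 5 UMIs in CT-LCG members. They were ELOVL3, a fatty acid elongase of sebaceous cells, GNG11, CLEC3B, KAP8, KRTAP11-1 and 4 genes with no name (LOC102191806, LOC102183766, LOC106501763 and LOC102176726). Against deep non-cycling cells, 3 of the 10 genes that stood lowest (LOR, GNG11 and LOC102191806) were still at least 2-fold lower in CT-LCG. LOC102191806 was below the limit of UMIs for that comparison. KRTAP11-1, which passed it, had a log2 ratio of -0.25 there. CLEC3B (-0.05), KAP8 (-0.08), LOC106501763 (-0.40), LOC102183766 (-0.59), ELOVL3 (0.82) and LOC102176726 (0.05) were also below the limit, so no direction is read from their ratios.

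Markers of other cell types were summed in the same way. The fibroblast list without the collagens of the rule had 0.0426 and 0.0322 per 10000 in members, against 0.109 and 0.0563 in non-cycling cells, and was at 0 in CT-LCG without the deepest member. The endothelial list had 0.0213 and 0.0188 against 0.104 and 0.140, and the T cell list 0.0213 and 0.0335 against 0.0272 and 0.0347. The melanocyte list had 0.319 and 0.248 against 0.245 and 0.252, with MITF its most abundant gene and 6 of its 8 genes at 0 in FT-LCG. The mast cell list had 0.0851 and 0.184 against 0.125 and 0.260. In deep non-cycling cells the fibroblast list had 0.0381 and 0.0277 and the T cell list 0.0100 and 0.0307. The mast cell list had 0.0521 and 0.252 there. Against these cells members were thus not lower in the first 2 lists, nor in the mast cell list of CT-LCG. The endothelial list, at 0.028 and 0.0605 in deep non-cycling cells, was still lower in FT-LCG members. In CT-LCG members it rested on 1 UMI and had 0.0294 without the deepest member, so no direction is read there. The sebaceous list had 7.45 (5.24 without the deepest member) and 5.06 against 4.46 and 4.23, a sum made up mostly of MGST1, and neither of its 2 genes compared was past the fold. MGST1 had log2 ratios of 0.79 and 0.27 and FASN 0.34 and -0.25. The Merkel cell list had 1.68 and 0.255 against 0.0977 and 0.224, with KRT8 its most abundant gene, and without the deepest CT-LCG member it had 0.0589 in that library. The macrophage or dendritic list had 0.106 (0.0589 without that cell) and 0.779 against 0.234 and 0.619, with CD74 the most abundant gene in FT-LCG. In the muscle and pericyte list, TAGLN was among 2 of 3 genes at least 2-fold lower, at 0.0426 and 0.185 per 10000 against 0.349 and 0.563. The whole list rested on 5 UMIs in CT-LCG members, at 0.106 per 10000 (0.0345 to 0.248), against 0.136 in deep non-cycling cells. In FT-LCG it had 0.275 against 0.781 in such cells. TAGLN was the 1 gene compared with them, at log2 ratios of -1.50 and -1.62.

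Levels of the phase lists varied among the members. With more UMIs of the 4 rule genes, which are themselves genes of G2 and mitosis, the G2/M list went up step by step. In FT-LCG it had 15.99 per 10000 in non-cycling cells, 17.4 in keratinocytes with 1 or 2 cycle UMIs (or more from a single gene), 24.1 in members with 3 or 4, 31.1 with 5 to 9 and 78.3 with 10 or more. In CT-LCG the same levels were 19.7, 22.3, 29.4, 40.3 and 71.9, the last 3 from 12, 6 and 14 cells. Depth rose over the same groups, and the 3 groups of FT-LCG members had median depths of 10764, 11660 and 15830 UMIs. The S phase list did not follow these steps. In FT-LCG it had 8.31, 11.3, 23.7, 20.6 and 21.0 per 10000, and in CT-LCG 8.39, 11.9, 31.7, 11.6 and 30.2. STMN1 had 0.500, 1.03, 4.01, 4.58 and 9.22 per 10000 over the 5 groups of FT-LCG, and 0.333, 0.647, 2.48, 3.68 and 9.76 over those of CT-LCG. The suprabasal list had 284, 235, 151, 153 and 140 in FT-LCG, lowest in the last group without falling at each step. In CT-LCG it had 369, 296, 143, 190 and 108. The last of these groups holds the member of 130262 UMIs, whose own level was 54.6 per 10000. For that reason no order of the member groups is read for this list in CT-LCG.

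**Figure D3:**
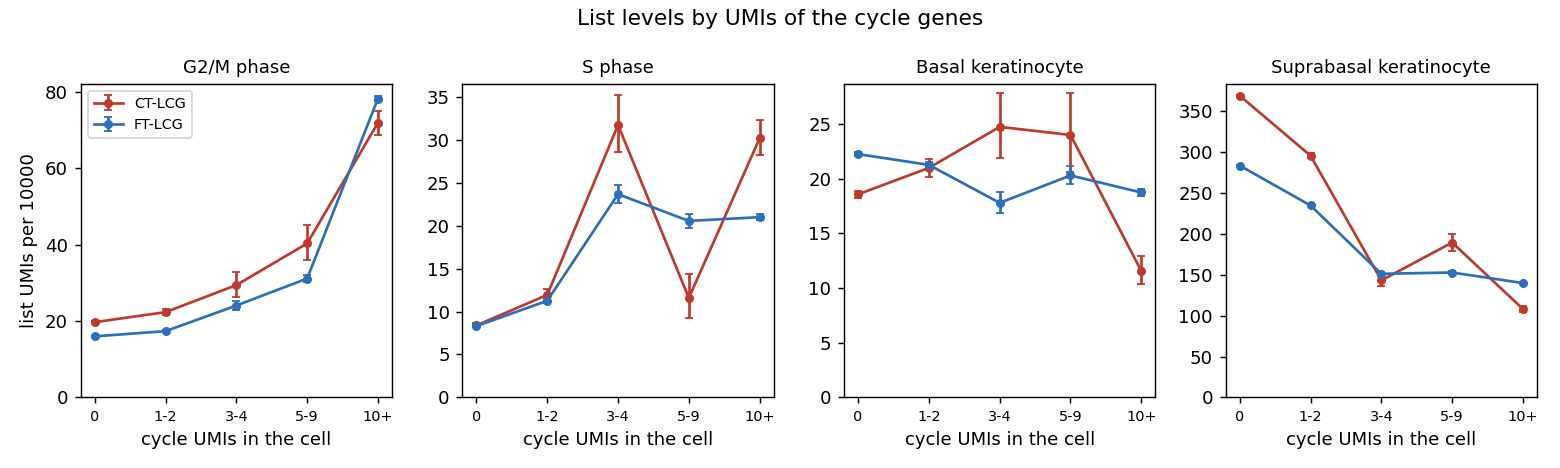
Levels of the G2/M, S phase, basal and suprabasal lists without the rule's genes (vertical axes, UMIs per 10000 with 95% Poisson intervals) by the number of UMIs of the 4 cycle genes in the cell (horizontal axes; 1-2 also holds cells with more UMIs from a single gene). From the first group to the last the G2/M list goes from 15.99 to 78.3 in FT-LCG and from 19.7 to 71.9 in CT-LCG, while the S phase list is highest at 3-4 in both.

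Over single members, the S phase and G2/M levels had a Spearman rho of 0.06 for CT-LCG and 0.05 for FT-LCG. Their median S phase level was 19.9 and 21.2 per 10000, and the median G2/M level was 66.5 and 75.9. The 4 genes of the rule belong to G2 and mitosis, and members with more S phase than G2/M UMIs were few. At 2000 UMIs they were 3 of 29 (10.3%, 2.19 to 27.4) in CT-LCG and 41 of 320 (12.8%, 9.35 to 17.0) in FT-LCG, and without thinning 12.5% and 13.5%. Among non-cycling cells at 2000 UMIs the shares were 16.5% and 21.2%. Of non-cycling cells with at least 5000 UMIs, 6 of 343 (1.75%) and 130 of 2782 (4.67%) reached the members' median S phase level. Only 1 (0.292%) and 6 (0.216%) reached their median G2/M level.

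The keratin state of the members spread widely. KRT14 and KRT5 together ran from 55.4 to 996 per 10000 in CT-LCG, with a median of 224, and from 51.8 to 1104 in FT-LCG, with a median of 403. KRT1 and KRT10 together ran from 2.92 to 290 with a median of 37.7 in CT-LCG and from 1.05 to 1444 with a median of 12.3 in FT-LCG. The 2 sums had a rho of -0.05 and -0.00 over members.

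**Figure D4:**
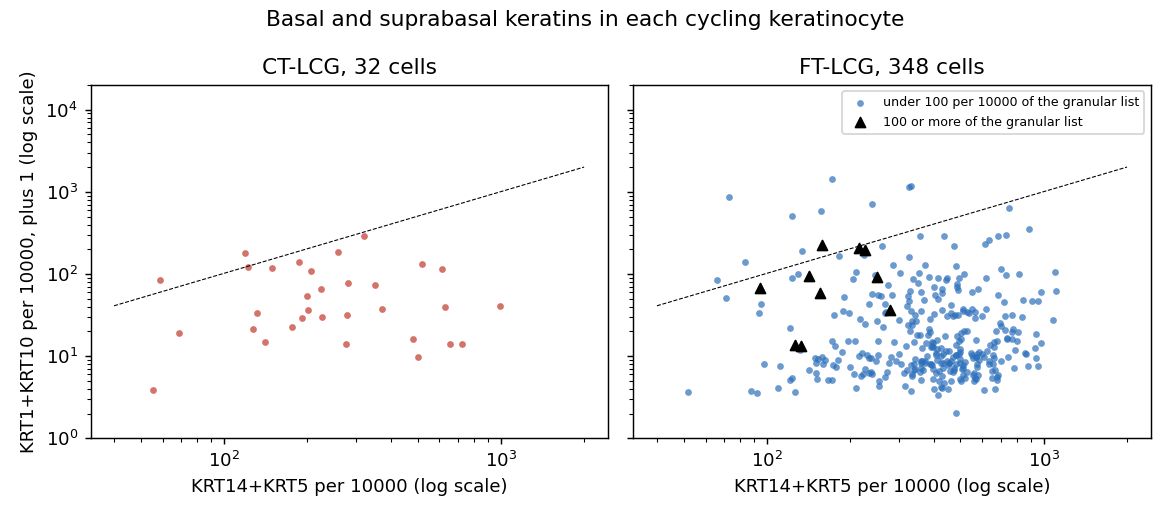
KRT1 and KRT10 together (vertical axis, UMIs per 10000 plus 1, log scale) against KRT14 and KRT5 together (horizontal axis, UMIs per 10000, log scale) in each member, with equal levels as a dashed line and triangles for members at 100 or more per 10000 of the granular list. Most cells lie below the line, and the 10 triangles are all in FT-LCG.

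A few members also carried genes of other keratinocyte layers. The granular list was at 100 per 10000 or more in 10 FT-LCG members, up to 1161, and in no CT-LCG member, where the highest was 17.1. The outer root sheath and bulge list reached 100 in 5 FT-LCG members, up to 168, and the hair matrix list in 1. One FT-LCG member of 126209 UMIs held the inner root sheath list at 1250 per 10000. It carried 97.5% of the KRT27, 95.9% of the KRT25 and 93.3% of the TCHH UMIs of all 348 members, at 3 UMIs of the cycle genes. Its TOP2A level of 0.0792 per 10000 was next to the 0.0793 of the FT-LCG endothelial cells, and UBE2C and BIRC5 had 0 UMIs. Its KRT14 level of 24.5 was below the 30.1 of those endothelial cells. KRT25 and KRT27 are keratins of the inner root sheath, and TCHH is the trichohyalin that hardens it. That these cells hold more than 1 cell each was not tested, since no doublet caller was applied here. Without the 17 members at 100 or more of these lists, 177 genes were at least 2-fold higher than in non-cycling cells and 108 lower, and 170 and 85 of these were also found with all members.

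Members were next set beside cycling cells that do carry KRT35 at 20 per 10000 or more. CT-LCG had 2 such cells with 5100 UMIs together, so the comparison was made in FT-LCG alone, where 21 cells had a median depth of 25857 UMIs. Both groups had to pass the same limit on the 4 cycle genes, so their likeness in cycle lists is given as a description only. Few genes of the G2/M, S phase and kinetochore lists were past the fold between the groups, while many other genes were. Of 8748 genes with at least 50 UMIs, 1789 (20.5%) were at least 2-fold higher in members and 886 (10.1%) at least 2-fold lower. MKI67 had 1.22 per 10000 in members and 1.21 in KRT35 cells, a log2 ratio of 0.02 (-0.34 to 0.39). STMN1 had 7.97 and 6.98, and PCNA had 2.92 and 2.17. The G2/M list had 65.4 and 63.3, and 2 of its 49 genes were past the fold, both higher. Of 42 S phase genes 2 were higher and 4 lower, and of 20 kinetochore genes none was past the fold. Other cycle lists went further apart. Of 11 cycle transcription factors 2 were higher and 3 lower, and of 5 CDK inhibitors 2 were higher and 1 lower. None of 11 cyclins and CDKs was past the fold.

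Basal, suprabasal and immediate early genes were higher in members. The minimum for KRT14 and KRT5 together was set for members alone, and the KRT35 cells had no such limit. The difference in basal genes is therefore given as a description only. All 12 basal genes outside the rule were at least 2-fold higher, as were 9 of 10 suprabasal and 9 of 11 immediate early genes. COL17A1 had 5.32 per 10000 against 0.195 (11 UMIs), a log2 ratio of 4.77 (3.93 to 5.77), and TP63 had 0.845 against 0.355. KRT10 had 32.3 against 3.09, and FOS had 33.2 against 6.50. SOX9 had 3.59 against 0.0355, AQP3, a glycerol channel of basal keratinocytes, had 11.4 against 0.124, and CCL27, a skin chemokine that draws T cells, had 9.86 against 0.107. THY1, FCGBP, PSMB9, LY6D, LOC102185525, LOC102168874 and LOC102181148 completed the 10 genes that stood highest. These 10 rested on few UMIs in the KRT35 cells, for example 2 for SOX9, 6 for CCL27 and 7 for AQP3.

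Genes of the hair matrix and ribosome biogenesis were lower in members. Because KRT35, a hair keratin, set the groups apart, the difference in hair matrix genes is also a description only. Without KRT35, 7 of 8 hair matrix genes were at least 2-fold lower. LEF1, the Wnt effector of hair precursors, had 3 UMIs and 0.00402 per 10000 in members against 0.959 in KRT35 cells, a log2 ratio of -7.90 (-10.22 to -6.27). MSX1, a homeobox factor of the matrix, had 0.0201 against 1.95, and BAMBI, a decoy receptor for BMP and TGF-beta, had 0.0845 against 6.84. FABP7, a fatty acid carrier, had 0.00268 against 1.76, and DLX2, NPTX2, ASS1, STEAP1, DCN and LOC102184693 completed the 10 that stood lowest. Of 13 ribosome biogenesis genes 10 were lower, and the list had 21.9 per 10000 against 50.4. EIF4A1 had 8.38 against 15.1. MYC, in turn, had 2.25 against 1.07, a log2 ratio of 1.08 (0.70 to 1.47).

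Between the goats, most genes compared in the members were less than 2-fold apart. The share past the fold was smaller among G2/M, S phase and kinetochore genes than among all genes, though not in every cycle list. Many of the genes that stood highest in one goat rested on a single cell or differed in non-cycling cells too. Of 6596 genes with at least 100 UMIs in all members, 492 (7.46%) were at least 2-fold higher in CT-LCG and 487 (7.38%) in FT-LCG. Of these, 156 and 139 were past the fold in the same direction in non-cycling cells, which is 31.7% and 28.5% of the member lists and 58.2% and 45.9% of the non-cycling lists. MKI67 had a log2 ratio of CT-LCG to FT-LCG of 0.18 (-0.21 to 0.54), and STMN1 -0.17 (-0.34 to -0.01). None of 47 G2/M genes was higher in CT-LCG and 3 were higher in FT-LCG, and none of 19 kinetochore genes was past the fold. The G2/M list had 56.8 per 10000 for CT-LCG and 65.4 for FT-LCG. Of 36 S phase genes 2 were higher in CT-LCG and none in FT-LCG, and that list had 27.6 (24.1 without the deepest CT-LCG member) against 21.2. One of 19 chromosomal passenger and spindle genes and 1 of 8 genes of the anaphase-promoting complex were higher in FT-LCG. Of 11 cyclins and CDKs 1 was higher in each goat, and of 5 CDK inhibitors 1 was higher in CT-LCG.

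The 10 genes that stood highest in CT-LCG members were led by a single cell. MMP7, a matrix protease of glands, had 202 UMIs in CT-LCG members, all in the member of 130262 UMIs, and 14 in FT-LCG members. WFDC2, a secreted protease inhibitor of glands, had 101 UMIs, all in that cell, as did LOC102184551 with 162 and LOC102183358 with 104. The same cell held 98.9% of the KRT7, 99.4% of the SPP1, 95.2% of the CLDN3 and 99.8% of the KRT19 UMIs. Keratins 7, 8, 18 and 19 are made by simple and glandular epithelia. Its KRT14 level was 29.9 per 10000, and it had 65 UMIs of the cycle genes. The log2 ratio of CT-LCG to FT-LCG members was 4.52 for KRT7 and 4.27 for SPP1, and without that cell 2 KRT7 UMIs and 1 SPP1 UMI were left in CT-LCG members, too few to give a direction. LOC108633505 did not rest on that cell. It had 8.94 per 10000 in CT-LCG members and 0.473 in FT-LCG members, a log2 ratio of 4.24 (4.03 to 4.45), and 4.85 in non-cycling cells. LOC108633164 (5.21) and LOC102180344 (6.20) completed the list, with 63.9% and 89.2% of their UMIs in 1 cell.

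**Figure D5:**
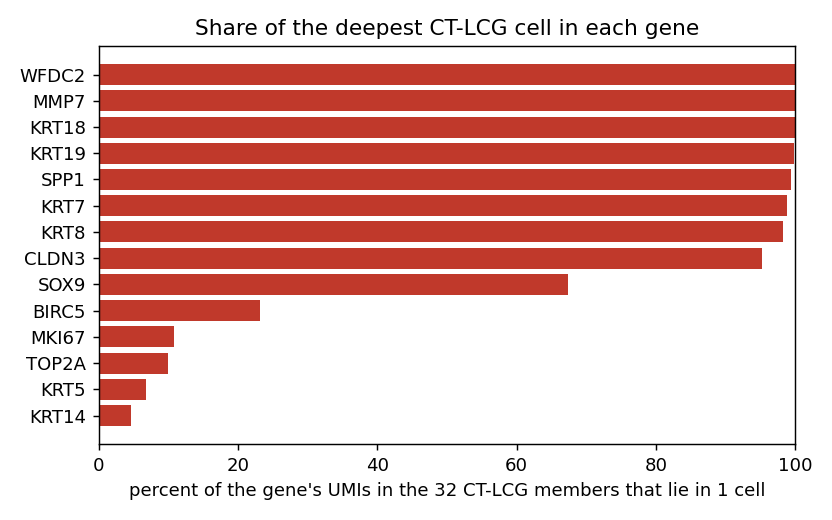
Share of each gene's UMIs in the 32 CT-LCG members that lies in the member of 130262 UMIs (horizontal axis, percent). The bars of KRT7, KRT8, KRT18, KRT19, MMP7, WFDC2, SPP1 and CLDN3 reach 95.2% or more, while KRT14 is at 4.72% and MKI67 at 10.8%.

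Among the 10 genes that stood highest in FT-LCG members, PEBP1, a kinase inhibitor protein, had 1.69 per 10000 (1.60 to 1.79) in 275 members against 2 UMIs in CT-LCG members, a log2 ratio of -5.31 (-8.36 to -3.46). In non-cycling cells the ratio was -4.30. LOC102180443, a transcribed pseudogene in the RefSeq table, had 14.9 against 0.149, a log2 ratio of -6.64 in members and -6.26 in non-cycling cells. LOC102184389 (-4.30) and LOC100860961 (-4.27) had ratios of -3.64 and -4.84 in non-cycling cells. CD74, the invariant chain of antigen presentation, had 490 UMIs in 38 FT-LCG members and 1 in CT-LCG, with a ratio of -2.06 in non-cycling cells. Nearly all KRT27 UMIs came from the FT-LCG member high in the inner root sheath list. LOC106503915, LOC102176685, LOC102178853 and LOC102188051 had 1 UMI each in CT-LCG members. Their ratios in non-cycling cells were -2.92, -2.66, -3.50 and -0.68, and 92.4% of the LOC102176685 UMIs of FT-LCG members lay in 1 cell.

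In the lists, NCL, NPM1 and NOP56 of ribosome biogenesis were the 3 of 13 genes past the fold, all higher in CT-LCG. NPM1, the nucleolar chaperone nucleophosmin, had 3.87 per 10000 against 1.28, a log2 ratio of 1.59 (1.36 to 1.83) in members, and 1.55 in non-cycling cells. NCL, nucleolin, had 11.7 against 4.36, a log2 ratio of 1.43 in members and 1.45 in non-cycling cells. Of 5 granular genes 4 were higher in FT-LCG, with CST6, a protease inhibitor of the upper epidermis, at 19.5 per 10000 against 1.81. The 10 FT-LCG members high in the granular list weigh on this sum, and over single members the list had a median of 5.31 per 10000 for FT-LCG and 3.24 for CT-LCG. Summed over non-cycling cells it had 37.7 in the former and 13.0 in the latter. CXCL14 had 2.61 in FT-LCG members against 0.191. AREG, a ligand of the EGF receptor, had 4.83 in CT-LCG members against 0.802, with 83.7% of its CT-LCG UMIs in the deepest member. Without that cell AREG had 1.09 in CT-LCG members, a log2 ratio of 0.44 that was no longer past the fold.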

How the data were processed

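The authors deposited UMI counts per gene and barcode from Cell Ranger 3.0.2 without normalization, in 1 matrix of both libraries, and a table that names the library of each cell they kept. Every kept cell had more than 500 genes. For the genome build, the aligner's reference is not given in the sources used here. Labels do not tie a goat to a fibre type, so library names come from that table. The members and the 31 gene lists were chosen with earlier results of these data known. Of 362 list genes 341 were in the matrix. The 10 rule genes were left out of lists and counts. Levels were summed UMIs per 10000, with exact Poisson intervals. Shares had Clopper-Pearson intervals. Log2 ratios had exact conditional intervals, with 3 counts in place of 0. With 1 library per type there was no test.

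Genes named were the 20 highest and 10 lowest against non-cycling cells by the smaller ratio of both libraries, and 10 each way in the other comparisons, besides list genes. The KRT35 comparison was planned in both libraries and made in FT-LCG alone. The values of 1 list gene are not reported here. No doublet caller was used. The calling step was tested on simulated data: at 4-fold, 99% of higher and 79% of lower genes were recovered among 8179 genes, with 0% of unchanged genes called. The simulated counts had counting error only, with no spread between cells and no single cell that dominates a gene. They thus give no rate of false calls for these data. Alternatives changed the limits of the rule, the reference, the gene filter, the weighting and the cells left out. The analysis used Python 3.11.15, numpy 2.4.6, scipy 1.17.1, pandas 2.3.3 and matplotlib 3.10.9.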

Additional observations from a re-analysis of the deposited data

Results flagged for a closer look

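In the inner root sheath list, 3 genes went opposite ways in the 2 libraries against all non-cycling cells. The log2 ratio of members to non-cycling cells was -1.35 in CT-LCG and 2.90 in FT-LCG for TCHH, -1.79 and 2.51 for KRT25, and -2.25 and 3.72 for KRT27. The difference itself was not tested. Of 8179 genes compared, 16 (0.196%) were at least 2-fold apart in opposite directions. In FT-LCG, 1 member of 126209 UMIs held 93.3% or more of the members' UMIs of each of the 3 genes.

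Of the 1589 FT-LCG barcodes outside the table of kept cells, 9 passed the whole rule, and 1 of 2659 did in CT-LCG. These barcodes are in no comparison of the report.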

How the results depend on the processing

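The share of kept cells that are members moved with the limit on cycle UMIs and on depth. In CT-LCG, where it was 0.929%, it was 0.581% with at least 5 cycle UMIs and 1.59% among cells with at least 1000 genes. In FT-LCG, where it was 3.62%, it was 4.36% with at least 2 cycle UMIs, 3.05% with at least 5, 5.00% among cells with at least 1000 genes, 2.83% with the cycle genes also at 5 per 10000 (added after seeing the data) and 2.26% after thinning to 2000 UMIs. Other limits on KRT35, KRT14 and KRT5 or collagens kept it within its interval.

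The 170 genes higher in members became 291 with a filter of 20 UMIs and 581 with 1 UMI, and the 88 lower genes became 240 with the mean over cells and 27 against non-cycling cells of at least 5000 UMIs (added after seeing the data), where fewer genes, 7323 and not 8179, were compared. The other alternatives stayed within 1.5 times, among them those without the deepest member of each library (154 higher, 79 lower), also added later. Between the goats, the 492 genes higher in CT-LCG members and 487 higher in FT-LCG members became 532 and 547 of 6443 without the deepest members. Only 350 and 334 of these were also found with all members. The ratio of members to non-cycling cells in CT-LCG turned for CDK2 to -0.88 with the mean over cells, -0.13 without the 5% of members with the most UMIs and -0.30 without the deepest. Against the deep cells it turned to 0.0513 for LOC102176726 and 0.82 for ELOVL3, both with too few UMIs to be compared there. Without the deepest members the ratio of CT-LCG to FT-LCG members turned to -1.50 for KRT7 and -2.59 for SPP1, on 2 and 1 CT-LCG UMIs. The cause was not tested, except that the last 2 rest on the cell left out.

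Of 62 list levels, 48 left their counting interval with the mean over cells, 39 without the 5% of members with the most UMIs, 28 with at least 5 cycle UMIs, 26 without the deepest members, 18 with members at 0 KRT35 UMIs and 0 among cells with at least 1000 genes. The shares of members by keratin or phase stayed within their intervals. No paired analysis was possible because there is 1 library per type and no test, and leaving out a library leaves the other described by itself. The promoter motifs planned were not run. Depth limits CT-LCG most, with 32 members and 469957 UMIs.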
